A study of Homo sapiens with 6 samples.

Results

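NKX2-2, NR0B1, BCL11B, EGR2, PAX7, MYC and FOXO1 are transcription regulators that have been connected with EWSR1::FLI1, the chimeric transcription factor of Ewing sarcoma. They were taken by gene symbol, 7 of the 26364 symbols measured, for these reported links and not by a limit on expression. Earlier results of these data were known when they were chosen. RNAseq was performed on A673/TR/shEF, an Ewing sarcoma line derived from A673 in which a tetracycline repressor holds back an shRNA against the fusion mRNA until doxycycline is added. All 6 libraries carried both constructs and were grown with blasticidin and zeocin. The 3 EWSR1::FLI1-high libraries came from untreated cells, and the 3 EWSR1::FLI1-low libraries came from cells kept in 1 µg/mL doxycycline for 72 h. Cells given doxycycline without the shRNA were not analysed here, so the loss of the fusion and the drug itself cannot be told apart. The labels speak of clones in one place and of numbered experiments in another, and p-values therefore measure only the spread between these samples. The comparison asks which of the 7 regulators differed in RNA level when the fusion was lowered.

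EWSR1::FLI1 joins a strong activation domain of EWSR1 to the ETS DNA-binding domain of FLI1. It binds microsatellites made of repeated GGAA, where it opens chromatin and creates enhancers, and it also lowers the expression of many genes, in part by displacing other ETS factors. NR0B1 (also called DAX1, an orphan nuclear receptor that acts as a corepressor), NKX2-2 (a homeodomain repressor that recruits TLE proteins), BCL11B (a zinc finger repressor known from T cells and neurons), EGR2 (a zinc finger factor of the early growth response family) and PAX7 (a paired box factor of muscle progenitors and neural crest) have been described as activated by the fusion. MYC (the proto-oncoprotein that drives ribosome production and growth) is often high in these tumours. FOXO1, a forkhead factor that favours cell cycle arrest, has been described as repressed by the fusion.

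Since the fusion binds repeated GGAA, the GRCh37 sequence within 5000 bases of each canonical start site was searched for unbroken runs of GGAA on both strands (TTCC on the other strand). NR0B1 had a longest run of 11 units, 1389 bases upstream of its start in intergenic sequence, and PAX7 had a longest run of 4 units, 4674 bases downstream of its start in an intron. MYC and FOXO1 held runs of no more than 2 units, and no run of 2 units was found for NKX2-2, BCL11B or EGR2. Sequence farther from the start sites was not searched, so more distant repeats of any member would be missed. Of the 19869 protein-coding start sites, 64.1% had a run of at least 2 units, 3.37% a run of at least 4 and 1.17% a run of at least 8. The 2 longer repeats are shown because they set these members apart in sequence, independent of any expression value. They are given 5′ to 3′ as reference sequence, with each GGAA unit in capitals, the first on the minus strand at chrX:30328875-30328976 and the second on the plus strand at chr1:18961984-18962042.

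NR0B1 repeat: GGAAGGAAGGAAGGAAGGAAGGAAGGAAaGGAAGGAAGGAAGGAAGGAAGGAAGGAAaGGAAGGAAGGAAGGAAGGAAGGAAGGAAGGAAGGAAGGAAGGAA

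PAX7 repeat: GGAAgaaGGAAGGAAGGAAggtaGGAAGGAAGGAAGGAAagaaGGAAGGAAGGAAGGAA

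The NR0B1 repeat counts 25 units in 102 bases, interrupted by single adenines, while the PAX7 repeat counts 12 units in 59 bases with 3 interruptions. The length of either repeat in A673 itself was not measured, and binding was not measured in these libraries.

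Reads on genes ranged from 7800264 to 10264638 in the EWSR1::FLI1-high libraries and from 6980361 to 16658933 in the EWSR1::FLI1-low libraries. Expression is given in FPKM, the fragments scaled to transcript length and to library size. FLI1, which carries the 3′ part of the fusion, measured 11.3, 12.7 and 14.2 FPKM without and 2.91, 4.29 and 3.68 FPKM with doxycycline, so the labels held in each library. Of the 5 Ewing sarcoma markers, FLI1, STEAP1 (152 ± 3.31 to 34.5 ± 12.5 FPKM, SD, n = 3) and LIPI (log2 fold change -2.44) fell, and CD99 was at 133 ± 13.2 and 91.8 ± 11.6 FPKM (SD, n = 3). The remaining marker, EWSR1, which gives the 5′ part of the fusion, was at 91.5 ± 13.9 and 65.1 ± 16.0 FPKM (SD, n = 3), without overlap but with an adjusted p of 0.159 (limma). Of 9 markers of blood, endothelial and epithelial cells, 8 stayed under 1 FPKM in every library, the highest value was 1.56 FPKM for PECAM1 in an EWSR1::FLI1-low library, and only PECAM1 and EPCAM passed the filter and were tested. PECAM1, an endothelial marker, was at 0.331 ± 0.0465 FPKM (SD, n = 3) in EWSR1::FLI1-high and at 0.934, 1.56 and 0.879 FPKM in the EWSR1::FLI1-low libraries, each above all untreated ones, with an adjusted p of 0.0333 (limma), and EPCAM had one of 0.645. PECAM1 passed the filter only through the EWSR1::FLI1-low group, so its separation and adjusted p are no support for a rise. The summed level of the 9 markers was from 1.67 to 3.0 FPKM in EWSR1::FLI1-high and from 2.76 to 4.68 FPKM in EWSR1::FLI1-low libraries, and their part in the results was not tested. In EWSR1::FLI1-low replicate 1 the FPKM of all genes added up to 255956, against 334614 to 366060 in the other libraries.

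All 7 regulators were detected and passed the filter of a mean of 0.5 FPKM over the 6 libraries. NR0B1, BCL11B and NKX2-2 fell when EWSR1::FLI1 was lowered, with log2 fold changes of -2.56, -2.15 and -1.19. None of the 7 passed the test as higher. FOXO1 and EGR2 had their EWSR1::FLI1-low libraries above, and PAX7 below, all EWSR1::FLI1-high libraries without passing the test, and MYC overlapped between the groups. The test was limma on log2(FPKM + 1) over 15504 genes, with a gene called at an adjusted p under 0.01. It called 3.37% of the tested genes lower and 4.51% higher, against 3 of the 7 regulators lower and 0 higher. At an unadjusted p under 0.05, 4 were lower and 2 higher, where 18.7% of the tested genes were lower and 15.6% higher. Limma-voom on recovered reads also called 3 lower and 0 higher, against 6.19% and 7.35% of the tested genes. The groups did not overlap for 4 regulators that were lower and 2 that were higher. Of all tested genes, 23.6% did not overlap in the lower and 17.5% in the higher direction. PAX7, among the 4 lower here and at the unadjusted limit, passed the filter only through the EWSR1::FLI1-high group. Its place in these counts is therefore no support. An exact permutation test of a single gene cannot give p under 0.1 with 3 libraries against 3. Fold changes are on the log2(FPKM + 1) scale, which understates those of genes at low FPKM, and the median over all tested genes was -0.05. In bulk RNA, fewer cells expressing a gene and less RNA in each cell cannot be told apart.

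**Figure D1:**
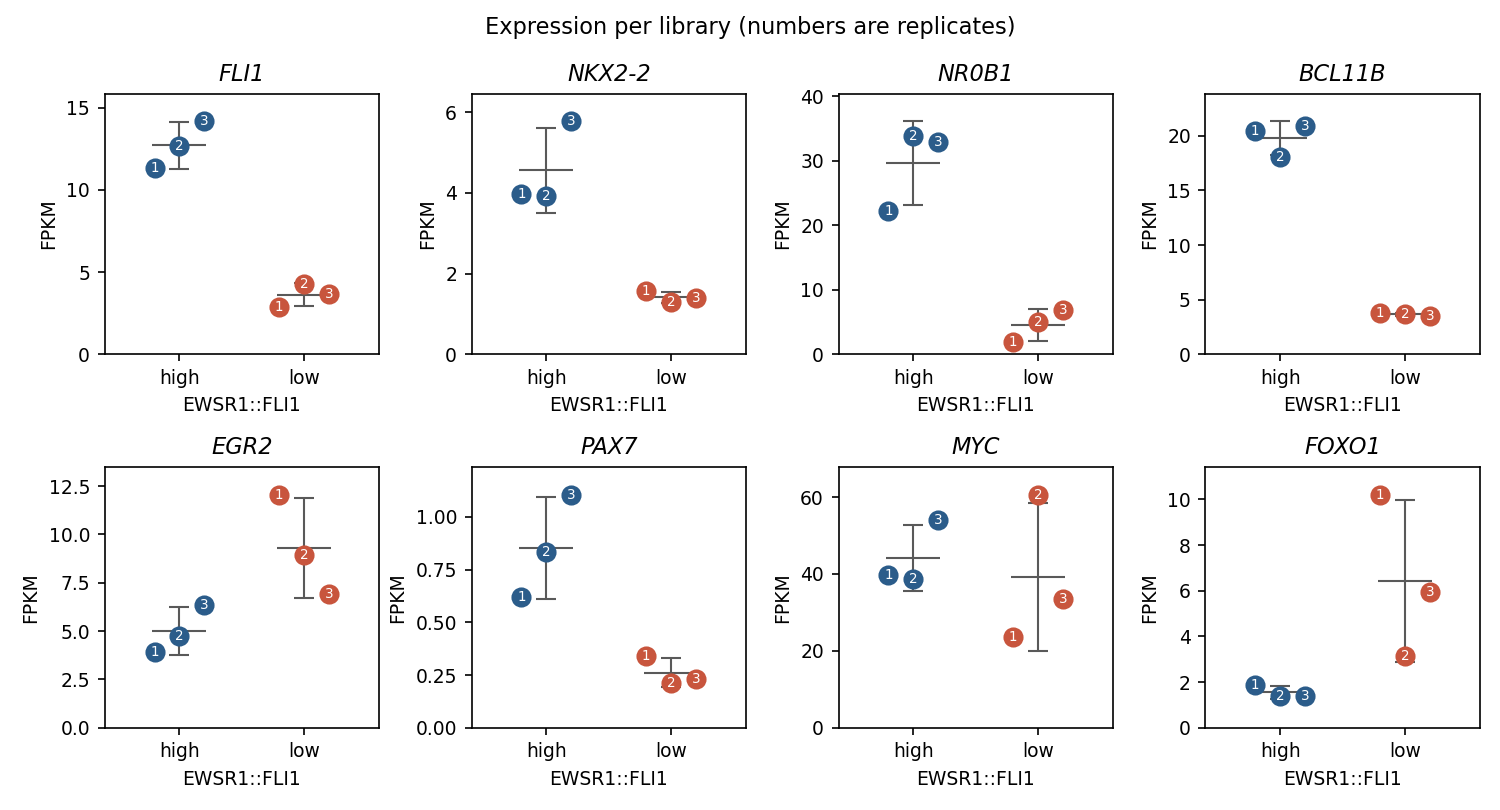
FPKM (y axis, linear, starting at 0) of FLI1 and the 7 regulators in each library of the EWSR1::FLI1-high and EWSR1::FLI1-low groups (x axis). Points carry the replicate number, the horizontal line is the group mean and the bars are ± 1 SD (n = 3). The groups are apart for every gene shown except MYC, whose EWSR1::FLI1-low values of 23.6 to 60.6 FPKM enclose its EWSR1::FLI1-high values of 38.6 to 54.1 FPKM.

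NR0B1 had the largest decrease of the 7. NR0B1 (ENSG00000169297, chromosome X, 30322323 to 30327507, minus strand, GRCh37) measured 22.2, 33.8 and 32.9 FPKM in untreated replicates 1, 2 and 3, and 1.84, 5.0 and 6.84 FPKM in doxycycline-treated replicates 1, 2 and 3. Each library with the fusion lowered was thus under each untreated one, and replicate 1 was the lowest. The mean was 6.49-fold lower, and the log2 fold change had a standard error of 0.36 and a 95% interval of -3.36 to -1.75 (adjusted p = 0.00172, limma). NR0B1 was also the only one of the 7 regulators past the study's additional limit of a log2 fold change under -2.5, which 0.206% of the tested genes passed in this direction. It ranked 26 among the genes that were lower, ordered by fold change. Median-ratio scaling gave -2.49 and scaling the FPKM to equal sums gave -2.45, just short of that limit, and limma-voom on recovered reads gave -2.63. The study set its limit on fold changes from DESeq2, a scale unlike log2(FPKM + 1). Without EWSR1::FLI1-high replicate 2 or 3 its adjusted p was 0.0115 and 0.0119 (limma). On the deposited FPKM, the NR0B1 levels after knockdown varied most of the 7, with the highest library 3.71 times the lowest. With FPKM scaled to equal sums, they ran from 2.40 to 6.34 FPKM. Those of FOXO1 then ran from 3.09 to 13.2 FPKM, a wider range.

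BCL11B showed the most even response. BCL11B (ENSG00000127152, chromosome 14, 99635624 to 99738534, minus strand) measured 20.5, 18.0 and 20.8 FPKM in untreated replicates 1, 2 and 3, and 3.82, 3.68 and 3.55 FPKM in doxycycline-treated replicates 1, 2 and 3. On the deposited FPKM, the 3 EWSR1::FLI1-low libraries differed by a factor of 1.08 between highest and lowest, the smallest spread among the 7 regulators. With FPKM scaled to equal sums, they were less close, at 4.96, 3.62 and 3.29 FPKM. The mean level fell from 19.8 ± 1.52 to 3.68 ± 0.133 FPKM (SD, n = 3), or 5.37-fold, and its log2 fold change was -2.15 (standard error 0.16, 95% interval -2.51 to -1.79, adjusted p = 9.5e-05, limma). BCL11B passed the test in each of the 15 alternatives. These levels rest on 1157 to 1727 reads in the EWSR1::FLI1-high and 243 to 445 reads in the EWSR1::FLI1-low libraries. Its paralogue BCL11A, the repressor of fetal globin, was at 0.272 ± 0.192 and 0.438 ± 0.208 FPKM (SD, n = 3) and did not pass the filter.

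NKX2-2 also fell. NKX2-2 (ENSG00000125820, chromosome 20, 21491655 to 21494702, minus strand) measured 3.99, 3.92 and 5.77 FPKM in untreated replicates 1, 2 and 3, and 1.57, 1.29 and 1.39 FPKM in doxycycline-treated replicates 1, 2 and 3. The groups were well apart, and on the deposited FPKM the EWSR1::FLI1-low libraries lay close together, the highest 1.22 times the lowest. With FPKM scaled to equal sums, these libraries were at 2.04, 1.27 and 1.29 FPKM. The mean was 3.22-fold lower and the log2 fold change was -1.19 (standard error 0.18, 95% interval -1.59 to -0.78, adjusted p = 0.00258, limma). NKX2-2 was covered by 65 to 93 reads in EWSR1::FLI1-high and 22 to 45 reads in EWSR1::FLI1-low libraries, far fewer than BCL11B. Its call was lost without EWSR1::FLI1-high replicate 2 (adjusted p = 0.0105, limma), EWSR1::FLI1-high replicate 3 (0.0130) or EWSR1::FLI1-low replicate 3 (0.0110). It was also lost without a filter on low values (adjusted p = 0.0101, limma). NKX2-2 overlaps the antisense gene NKX2-2-AS1 by 863 bases, and without strand in the counting, which the sources used here do not give, reads of the 2 genes could not be separated. A lncRNA (ENSG00000235785) likewise lies opposite 1788 bases of BCL11B.

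PAX7 was the least expressed of the 7 and did not pass the test. PAX7 (ENSG00000009709, chromosome 1, 18957340 to 19075360, plus strand) measured 0.619, 0.835 and 1.10 FPKM in untreated replicates 1, 2 and 3, and 0.338, 0.212 and 0.234 FPKM in doxycycline-treated replicates 1, 2 and 3. The groups did not overlap. The mean over all libraries, 0.557 FPKM, passed the filter only through the EWSR1::FLI1-high group. The ratio of means was 3.26-fold, close to that of NKX2-2, but the log2 fold change was -0.55 (standard error 0.17, 95% interval -0.94 to -0.16, adjusted p = 0.0545, limma) because 1 FPKM is added before the logarithm. On recovered reads, 41, 42 and 54 against 19, 11 and 23, limma-voom gave -1.61 (standard error 0.37, adjusted p = 0.0126). PAX7 was above 19.0% of the tested genes in EWSR1::FLI1-high cells, against 44.3% for NKX2-2, 73.0% for BCL11B and 80.8% for NR0B1.

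**Figure D2:**
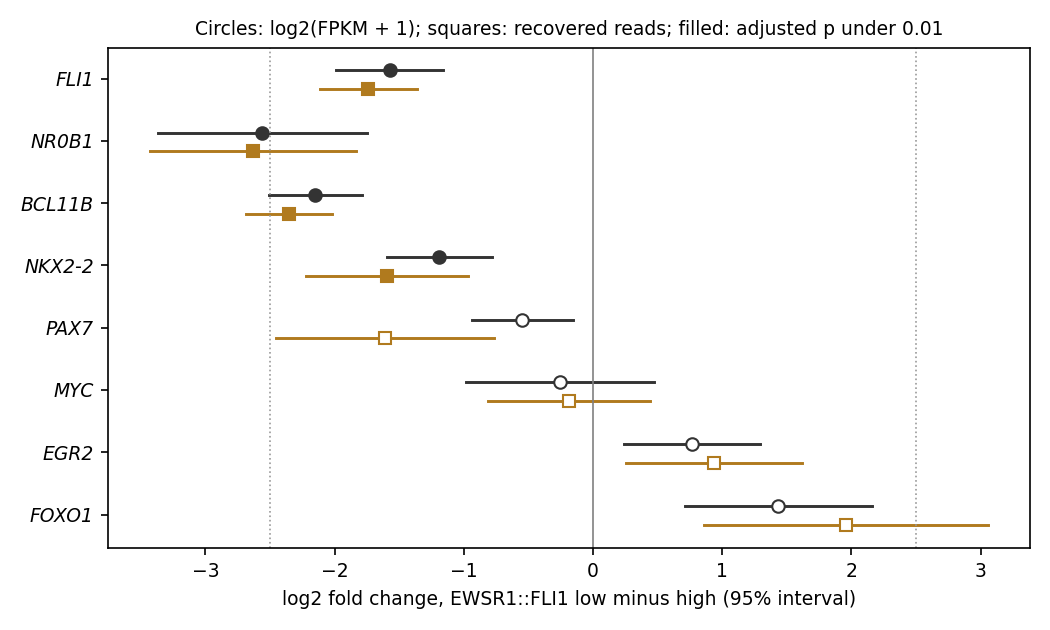
Log2 fold change, EWSR1::FLI1-low minus EWSR1::FLI1-high (x axis), with its 95% interval (bars) for FLI1 and the 7 regulators, from limma on log2(FPKM + 1) (circles) and from limma-voom on recovered reads (squares). Filled symbols have an adjusted p under 0.01, and dotted lines mark the study's limit of 2.5 in either direction. On log2(FPKM + 1), the intervals of NR0B1, BCL11B and NKX2-2, which passed the test, lie below 0, that of MYC (-0.99 to 0.48) spans 0, and those of EGR2 and FOXO1 lie above 0.

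EGR2 was higher in each EWSR1::FLI1-low library but missed the limit of the test. EGR2 (ENSG00000122877, chromosome 10, 64571756 to 64578927, minus strand) measured 3.93, 4.74 and 6.36 FPKM in untreated replicates 1, 2 and 3, and 12, 8.95 and 6.91 FPKM in doxycycline-treated replicates 1, 2 and 3. The highest untreated library and the lowest treated one, both replicate 3, were close together. The mean was 1.86-fold higher, with a log2 fold change of 0.77 (standard error 0.23, 95% interval 0.24 to 1.30, adjusted p = 0.0490, limma). EGR2 did not pass the limit in any of the 15 alternatives. It shares 4735 bases with a lncRNA on the same strand (ENSG00000289487), whose reads could not be told from its own even with strand. The family members EGR1 and EGR3, immediate early genes like EGR2, were at 7.14 ± 1.36 and 4.51 ± 1.95 FPKM (adjusted p = 0.155, limma) and at 1.10 ± 0.102 and 1.6 ± 0.706 FPKM (adjusted p = 0.443, limma; SD, n = 3).

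None of the 4 genes around EGR2 was called either, with a median log2 fold change of 0.41. ADO, an oxidase of thiols and the nearest neighbour in the region linked with Ewing sarcoma risk, was at 26.2 ± 0.768 and 26 ± 3.88 FPKM (SD, n = 3). ZNF365, a zinc finger gene, was at 0.478 ± 0.117 and 1.66 ± 0.506 FPKM (SD, n = 3), and its adjusted p of 0.0178 (limma) compared with 0.00348 on recovered reads (limma-voom). ZNF365 passed the filter only through the EWSR1::FLI1-low group, so these p-values and its part in the median are no support for a rise. NRBF2, an autophagy factor, was at 33.6 ± 2.95 and 45.8 ± 12.8 FPKM, and JMJD1C, a putative histone demethylase, at 36.1 ± 3.64 and 49.0 ± 6.83 FPKM (SD, n = 3).

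MYC had the highest level of the 7, above 87.4% of the tested genes, and showed no difference beyond the spread. MYC (ENSG00000136997, chromosome 8, 128747680 to 128755197, plus strand) measured 39.7, 38.6 and 54.1 FPKM in untreated replicates 1, 2 and 3, and 23.6, 60.6 and 33.5 FPKM in doxycycline-treated replicates 1, 2 and 3. Both the highest and the lowest library belonged to the EWSR1::FLI1-low group. The log2 fold change was -0.26 (standard error 0.32, 95% interval -0.99 to 0.48, adjusted p = 0.622, limma; exact permutation p = 0.5, two-sided). Without EWSR1::FLI1-low replicate 1 it was 0.05 (adjusted p = 0.911, limma). MYC shares 3554 bases with CASC11 on the opposite strand, which was under 1 FPKM on average in both groups (0.736 and 0.553 FPKM).

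Genes that MYC is known to activate were described from a list of 22, of which 21 were tested. The test called 3.37% of all tested genes lower. POLR1B, a subunit of RNA polymerase I, was the 1 gene called, and it fell from 26.9 ± 3.29 to 11.8 ± 2.71 FPKM (SD, n = 3; log2 fold change -1.14, adjusted p = 0.00748, limma). POLR1B lost its call without any 1 of 5 libraries, EWSR1::FLI1-low replicate 1 being the exception, with an adjusted p of up to 0.0464 (limma). All 21 had a log2 fold change below 0 with the deposited and the median-ratio scaling, 20 with equal sums of FPKM and 19 with quantile normalization. The median was -0.76 against -0.05 over all tested genes. Of the 21, 17 were lower without overlap between the groups, against 23.6% of the tested genes. EWSR1::FLI1-low replicate 1, the library with the lowest MYC level and the smallest FPKM sum, was the lowest of the 6 for 20 of the 22 targets, against 39.1% of the tested genes. Its part in these values was not tested, but without it the median log2 fold change of the targets was -0.46 and 17 of the 21 were below 0. With FPKM scaled to equal sums, replicate 1 was lowest for 17 of the 22 targets and for 15.2% of the tested genes. EWSR1::FLI1-low replicate 2 had the highest MYC level of all libraries, and there the targets stood at a median of -0.47 from their EWSR1::FLI1-high mean, near the -0.44 of replicate 3.

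FOXO1 was higher in each EWSR1::FLI1-low library, by amounts that differed greatly between them. FOXO1 (ENSG00000150907, chromosome 13, 41129804 to 41240778, minus strand) measured 1.89, 1.38 and 1.37 FPKM in untreated replicates 1, 2 and 3, and 10.2, 3.14 and 5.93 FPKM in doxycycline-treated replicates 1, 2 and 3. The groups did not overlap, but the highest treated library was 3.24 times the lowest. The mean was 4.15-fold higher, with a log2 fold change of 1.43 (standard error 0.32, 95% interval 0.71 to 2.16), and the adjusted p of 0.0154 (limma) missed the limit. Of the 6 fits with 1 library left out, 1 passed the limit. That was the fit without EWSR1::FLI1-low replicate 2, the least changed library, at 1.80 with an adjusted p of 0.00147 (limma). The log2 fold change was 1.08 without EWSR1::FLI1-low replicate 1 (adjusted p = 0.0119, limma). Without EWSR1::FLI1-high replicate 3 the adjusted p was 0.0656 (limma). On recovered reads, 114, 63 and 61 against 520, 148 and 530, limma-voom put the log2 fold change at 1.96 (adjusted p = 0.0171). FOXO1 shares 55461 bases of its span with a lncRNA on the same strand (ENSG00000288542). The related factor FOXO3 was at 4.67 ± 0.404 and 8.74 ± 0.968 FPKM (SD, n = 3; adjusted p = 0.0121, limma), and it passed on recovered reads (adjusted p = 0.00526, limma-voom).

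Of 18 genes that FOXO factors are known to activate, all tested, 4 rose and 2 fell, against 4.51% and 3.37% of all tested genes. The median log2 fold change of the 18 was 0.62, against -0.05 over all tested genes. TRIM63, a muscle ubiquitin ligase, rose the most, from 0.376 ± 0.139 to 5.92 ± 1.79 FPKM (log2 fold change 2.30, adjusted p = 0.000274, limma). It had 9, 6 and 3 reads in the EWSR1::FLI1-high libraries and passed the filter only through the EWSR1::FLI1-low group. FBXO32, the other ubiquitin ligase of muscle atrophy, rose from 0.960 ± 0.158 to 3.48 ± 1.42 FPKM (adjusted p = 0.00980, limma). PIK3IP1, an inhibitor of PI3 kinase, rose from 0.239 ± 0.145 to 1.76 ± 0.575 FPKM (adjusted p = 0.00600, limma). It too passed only through the EWSR1::FLI1-low group, with 4, 8 and 3 reads in the EWSR1::FLI1-high libraries. The count of genes that rose, and the part of TRIM63 and PIK3IP1 in the median, are therefore no support for the list. The fourth was CCNG2, a cyclin of arrested cells, at 2.43 ± 0.133 and 6.31 ± 0.584 FPKM (adjusted p = 0.00179, limma). CITED2, a transcription coregulator, fell from 77.5 ± 5.98 to 32.6 ± 2.23 FPKM (log2 fold change -1.22, adjusted p = 0.00176, limma). IRS2, an adaptor of the insulin receptor, fell from 11.4 ± 0.490 to 5.28 ± 1.20 FPKM (SD, n = 3; adjusted p = 0.00698, limma). TRIM63 was called in all 6 fits with 1 library left out. As its entry into the test came through the EWSR1::FLI1-low group, this is no support for its rise. Each of the other 5 lost its call without any 1 of the EWSR1::FLI1-high replicates, with adjusted p up to 0.0478 (limma). IRS2 also lost it without EWSR1::FLI1-low replicate 2 or 3, FBXO32 without EWSR1::FLI1-low replicate 1 or 2, and PIK3IP1 without EWSR1::FLI1-low replicate 2. The classical cell cycle targets were not called: CDKN1B (p27) was at 23.7 ± 2.03 and 20.6 ± 4.64 FPKM and CDKN1A (p21) at 31.5 ± 3.41 and 40.1 ± 23.4 FPKM (SD, n = 3).

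**Figure D3:**
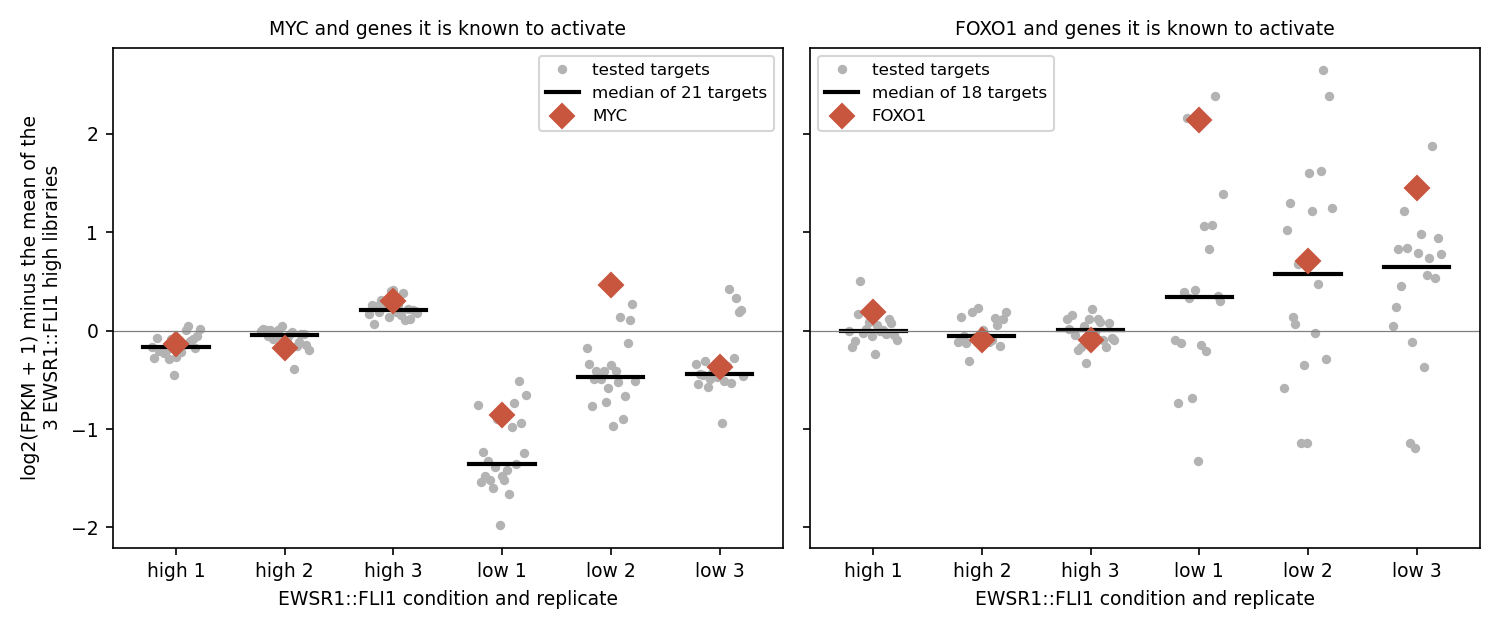
Difference of log2(FPKM + 1) from the mean of the 3 EWSR1::FLI1-high libraries (y axis) in each library (x axis) for MYC and 21 tested genes it is known to activate (left) and for FOXO1 and 18 genes that FOXO factors are known to activate (right). Grey points are target genes, black lines their median and diamonds the regulator. The MYC targets are lowest in EWSR1::FLI1-low replicate 1, at a median of -1.35.

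Genes that act on FOXO1 protein had log2 fold changes on both sides of 0. Of 12 such genes, for kinases, ubiquitin ligases and acetylation enzymes, 11 were tested. Among these, 1 fell and 0 rose, against 3.37% and 4.51% of all tested genes, and the median log2 fold change was -0.01. The groups did not overlap for 4 that were lower and 1 that was higher. Of all tested genes, 23.6% did not overlap in the lower and 17.5% in the higher direction. SKP2, the F-box protein that marks FOXO1 and p27 for degradation, fell from 51.7 ± 5.26 to 15.5 ± 6.07 FPKM (SD, n = 3; log2 fold change -1.75, adjusted p = 0.00447, limma). Its call was lost without any 1 of the EWSR1::FLI1-high replicates, with an adjusted p of up to 0.0280 (limma). CDK2, a cell cycle kinase that phosphorylates FOXO1, was at 34.6 ± 3.58 and 18.9 ± 5.56 FPKM (SD, n = 3), with an adjusted p of 0.0296 with limma and 0.00762 with limma-voom. SGK1, a kinase related to AKT, was at 18.2 ± 5.74 and 49.3 ± 26.6 FPKM (SD, n = 3; adjusted p = 0.0794, limma), with overlapping groups.

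Other regulators reported as activated by the fusion or as working with it were set beside the 7. Of 12 such genes, all tested, 5 fell and 0 rose, against 3.37% and 4.51% of all tested genes. The median log2 fold change of the 12 was -1.06, against -0.05 over all tested genes. FEZF1, a zinc finger repressor of forebrain development, fell from 32.0 ± 3.57 to 1.68 ± 0.655 FPKM (log2 fold change -3.65, adjusted p = 3.7e-05, limma), with reads that could be shared with its antisense gene FEZF1-AS1 if strand was not used. KLF15, a Krüppel-like factor, fell from 8.43 ± 1.28 to 1.23 ± 0.334 FPKM (log2 fold change -2.08, adjusted p = 0.000211, limma), a change of about the size of that of BCL11B. SOX2, a factor of stem cells, fell from 62.3 ± 8.15 to 20.2 ± 5.13 FPKM (adjusted p = 0.00207, limma) and HOXD13, a posterior homeobox factor, from 22 ± 2.86 to 9.17 ± 2.60 FPKM (adjusted p = 0.00716, limma). The fifth was EZH2, the methyltransferase of the Polycomb complex, at 89.3 ± 13.4 and 39.4 ± 9.17 FPKM (SD, n = 3; adjusted p = 0.00751, limma). FEZF1 and KLF15 kept their calls in all 6 fits with 1 library left out. SOX2 lost it without EWSR1::FLI1-high replicate 2 or 3 (adjusted p up to 0.0174, limma), and EZH2 (up to 0.0490) and HOXD13 (up to 0.0433) without any 1 EWSR1::FLI1-high replicate or EWSR1::FLI1-low replicate 2, HOXD13 also without EWSR1::FLI1-low replicate 3.

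The closest relatives of the 7 regulators were for the most part weakly expressed. Of 17 relatives, 9 were tested and 0 were called with limma. At an unadjusted p under 0.05, 2 were lower and 2 higher, against 18.7% and 15.6% of all tested genes. Limma-voom called FOXO3 alone. PAX3, the paralogue of PAX7, was at 11.2 ± 1.31 and 7.64 ± 0.925 FPKM (SD, n = 3; adjusted p = 0.0809, limma), well above PAX7. NKX2-5, the cardiac homeobox factor, was at 7.01 ± 1.99 and 4.15 ± 1.11 FPKM (SD, n = 3; adjusted p = 0.0932, limma), also above NKX2-2 in these cells.

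Of 30 genes for corepressors and dimerization partners of the 7 regulators, 29 were tested, and 1 fell and 2 rose. The test called 3.37% of all tested genes lower and 4.51% higher. The median log2 fold change of the 29 was -0.13, against -0.05 over all tested genes. TLE1, a Groucho corepressor of the kind that NKX2-2 recruits, rose from 1.64 ± 0.205 to 7.34 ± 0.526 FPKM (SD, n = 3; log2 fold change 1.66, adjusted p = 0.000258, limma). MXD4, which competes with MYC for MAX, rose from 2.49 ± 0.382 to 9.48 ± 0.960 FPKM (SD, n = 3; log2 fold change 1.59, adjusted p = 0.000421, limma). RCOR1, a scaffold of the LSD1 and HDAC complex, fell from 31.7 ± 3.5 to 9.72 ± 0.312 FPKM (SD, n = 3; log2 fold change -1.6, adjusted p = 0.000467, limma). These 3 kept their calls in all 6 fits with 1 library left out. The partner of MYC itself, MAX, was at 28.9 ± 5.0 and 36.6 ± 8.14 FPKM (SD, n = 3; adjusted p = 0.365, limma).

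**Figure D4:**
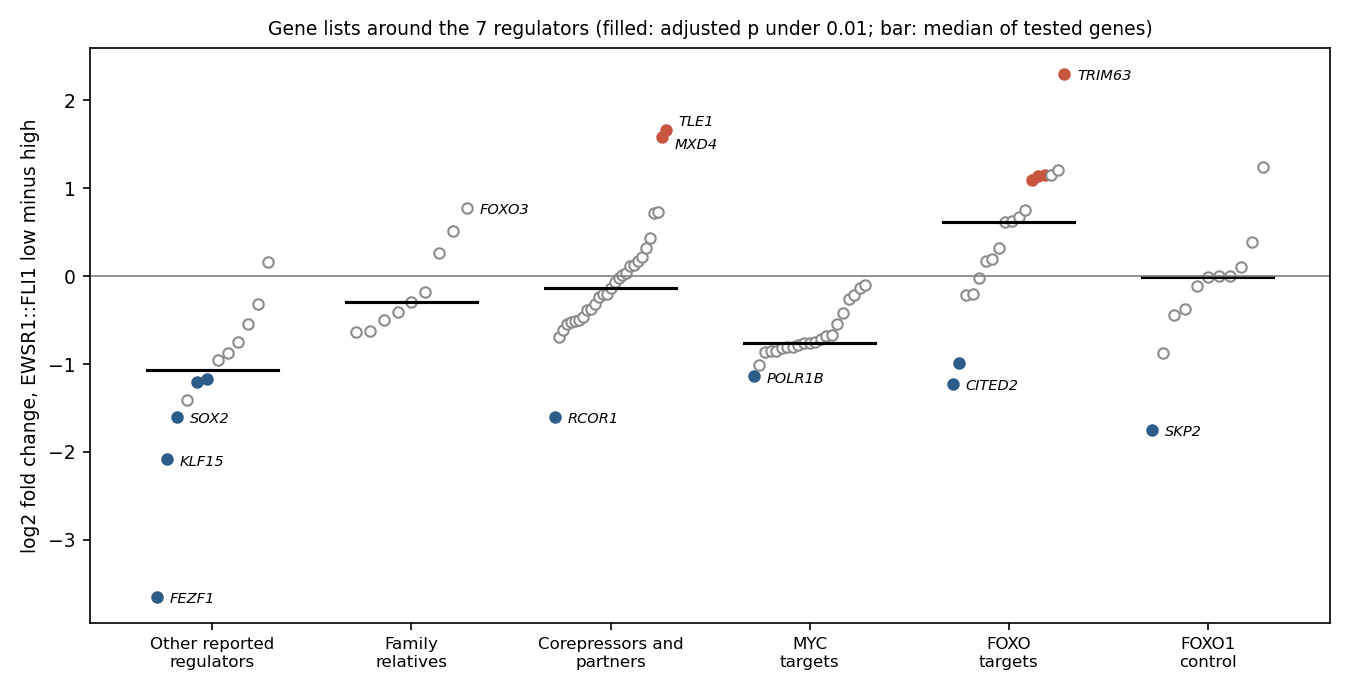
Log2 fold change on log2(FPKM + 1), EWSR1::FLI1-low minus EWSR1::FLI1-high, of each tested gene of the lists shown. These are the other reported regulators, relatives, corepressors and partners, MYC targets, FOXO targets and genes that act on FOXO1 protein. Called genes are filled. Bars are medians of tested genes, and some genes are labelled. The MYC targets all lie below 0 (20 of 21 with equal sums of FPKM and 19 with quantile normalization), while the corepressors and partners lie on both sides with TLE1 and MXD4 highest.

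The size of the change was steadier for some regulators than for others when the processing was altered. BCL11B stayed between -2.39 and -2.02 on the log2 scale over the 15 alternatives, and NR0B1 between -2.87 and -2.14. PAX7 moved from -0.55 to -1.38 with 0.1 in place of 1 added to the FPKM, and its adjusted p was then 0.0597 (limma).

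**Figure D5:**
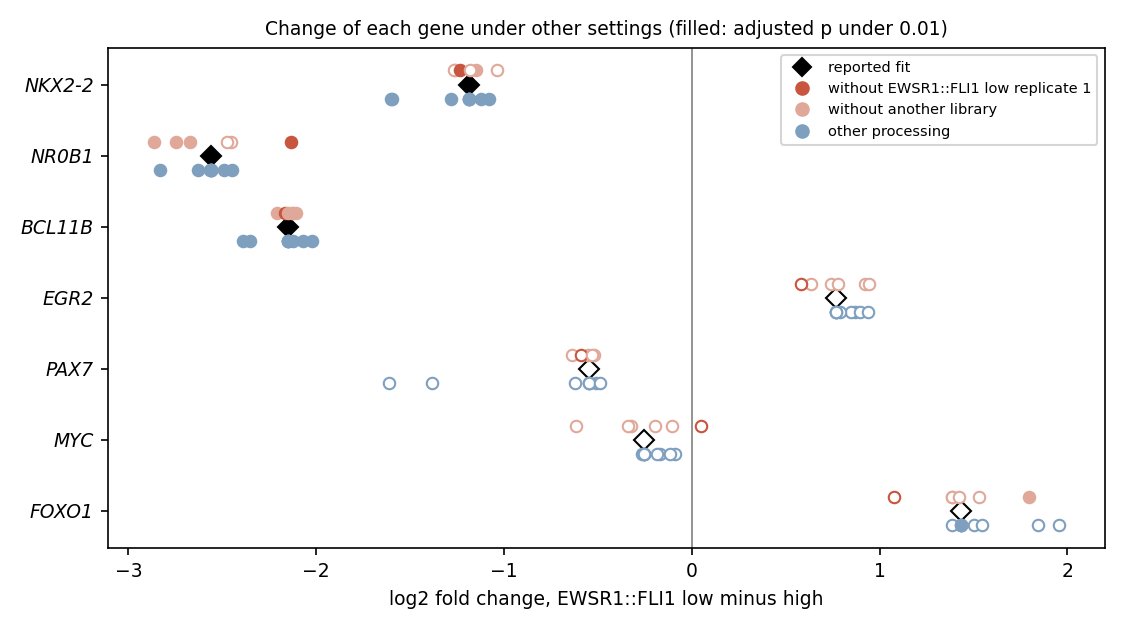
Log2 fold change of each regulator (x axis, EWSR1::FLI1-low minus EWSR1::FLI1-high) in the reported fit (diamonds), with 1 library left out (upper points, EWSR1::FLI1-low replicate 1 in the darker red) and with other processing (lower points). Filled symbols have an adjusted p under 0.01. BCL11B is filled throughout, and MYC crosses 0 only without EWSR1::FLI1-low replicate 1, at 0.05.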

How the data were processed

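RNAseq of ribosome-depleted RNA from 6 A673/TR/shEF libraries was prepared with ScriptSeq v2. Per the submitters' processing notes, STAR 2.5.0b, bedtools 2.17.0, Cufflinks 2.2.1 and DESeq2 1.6.3 were used with GRCh37. The strand setting and gene annotation are not given in the sources used here. The authors deposited 1 FPKM value for each gene symbol in each library, unpooled. They also deposited a comparison table with a mean signal per gene (mean normalized count), a log2 fold change and standard error, a score, a p-value and an adjusted p-value. Of this table, only the mean signal was used. It gave whole reads for 100% of values within 0.1 reads.

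EWSR1::FLI1-low was compared with EWSR1::FLI1-high by limma 3.58.1 (R 4.3.3, lmFit, eBayes with trend) on log2(FPKM + 1), where the mean was 0.5 FPKM or more, with Benjamini-Hochberg adjustment over all genes tested. The steps were tested on simulated data. Coordinates are from GENCODE v44 lifted to GRCh37, and GGAA runs were searched in that genome with Python 3.11.15. Counting error alone is covered by the reads given.

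The members, lists and tests were chosen with earlier results of these data known. Named genes are the members, FLI1, EWSR1, at most 4 called genes of each list by fold change (at most 4 by mean FPKM where none was called) and the 2 genes most like each member. BCL11A, EGR3, EZH2, CCNG2, IRS2, CDKN1A, CDKN1B, MAX, CDK2, SGK1, CD99, PECAM1, EPCAM, CASC11 and NKX2-2-AS1 were added after their values were seen. Alternatives were quantile and median-ratio scaling, a pseudocount of 0.1, other filters, a replicate block, eBayes with no trend, limma-voom on recovered reads and leaving out each library, and, chosen after seeing the data, FPKM scaled to equal sums.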

Additional observations from a re-analysis of the deposited data

How the results depend on the processing

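BCL11B kept its call in each of 15 alternatives, NKX2-2 in 11 and NR0B1 in 13. EGR2, PAX7 and MYC passed the limit in none, and FOXO1 in 2. NKX2-2 was at -1.19 (adjusted p = 0.0101, limma) without a filter on low values. With 1 library left out, NKX2-2 ranged from -1.27 to -1.04, NR0B1 from -2.87 to -2.14, MYC from -0.62 to 0.0467 (positive without EWSR1::FLI1-low replicate 1) and FOXO1 from 1.08 to 1.80. The regulators called lower then ranged from 1 to 3 and those called higher from 0 to 1. Over all genes, 522 were called lower and 700 higher. Lower calls numbered 297 without a filter, 813 with median-ratio scaling, 990 with quantile normalization, 819 with equal sums of FPKM, 959 with limma-voom and from 157 to 807 with 1 library left out. Higher calls numbered 456 without a filter, 1224 with equal sums, 1139 with limma-voom and from 308 to 1527 with 1 library left out. The causes were not tested. PAX7 fell below the filter of 1 FPKM, and below 0.5 FPKM without EWSR1::FLI1-high replicate 3. Scaling to equal sums moved the median of all genes by 0.103.

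Over the alternatives, the called counts ranged from 2 to 7 lower for the other reported regulators (5 as reported), 0 to 3 lower for the MYC targets (1), 0 to 2 lower (2) and 1 to 6 higher (4) for the FOXO targets, 0 to 2 lower (1) and 0 to 1 higher (0) for the FOXO1 control genes, 0 to 1 higher for the relatives (0) and 0 to 2 higher for the EGR2 neighbours (0). The partners stayed at 1 lower and 2 higher.

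In the fit with a replicate block, the log2 fold change of FOXO1 was 1.43 with an adjusted p of 0.00371 (limma), so 1 regulator was called higher, and 786 genes were called lower. Deviations of same-numbered libraries correlated at 0.27, 0.09 and 0.12, so the numbers were not taken to pair the samples.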

Other observations

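For each regulator, the 2 tested genes with the most similar course over the 6 libraries were found by the root mean square difference of log2(FPKM + 1) after each gene's own mean was subtracted. With 6 libraries in 2 groups, this likeness is a description only. BCL11B was nearest to KLF15 (0.118 log2 units) and ADGRG2 (0.125), an orphan adhesion receptor that fell from 28.2 ± 3.33 to 5.05 ± 0.496 FPKM (SD, n = 3; adjusted p = 0.000112, limma). NR0B1 was nearest to STEAP1 (0.311) and LOC101927746 (0.339), less closely than the other members to theirs. NKX2-2 was nearest to RYR2, a calcium release channel (0.0868), and GRK5, a receptor kinase (0.0883), which fell from 28.7 ± 4.59 to 11.8 ± 0.504 FPKM (SD, n = 3; adjusted p = 0.00260, limma). PAX7 was nearest to SH3BP1 (0.0415) and LINC01068 (0.0479), neither of them called.

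EGR2 was nearest to FOS, an immediate early gene (0.114), which was at 3.33 ± 0.827 and 6.01 ± 1.79 FPKM (SD, n = 3; adjusted p = 0.0630, limma), and to SERTAD4 (0.142). MYC was nearest to DAXX (0.0856) and WWC1 (0.0859), neither called. FOXO1 was nearest to KCNMB4, a potassium channel subunit (0.117), and FZD7, a Wnt receptor (0.163), at 2.34 ± 0.311 and 7.81 ± 3.72 FPKM (SD, n = 3; adjusted p = 0.0106, limma).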
